A study of Homo sapiens with 4 samples.

Results

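The 10 genes described here take iron into the cell, store it, move it or release it, and the data are the GATA2 peaks that lie at these genes in K562 cells. They are *TFRC*, *TFR2*, *STEAP3*, *SLC11A2*, *SLC25A37*, *FTH1*, *FTL*, *NCOA4*, *SLC40A1* and *HMOX1*, of 20033 protein-coding genes in GENCODE release 44. A peak belongs to a gene if at least 1 of its bases lies in the gene body or within 25 kb on either side on hg38. By this rule the genes held 27 of 31777 asynchronous peaks and 3 of 1648 mitotic peaks. K562 is an established human line from a chronic myeloid leukaemia that grows in suspension. Occupancy of endogenous GATA2 was measured by ChIP-seq, which sequences the DNA recovered with an antibody and reports the stretches where reads accumulate as peaks. One library came from asynchronous cells and 1 from cells arrested with nocodazole and sorted as positive for the mitotic marker MPM-2. Cells of both conditions were fixed with DSG and then formaldehyde. The mitotic pellets of several sorting rounds were pooled, and some asynchronous cells remained after the sort. Each condition therefore has 1 library (n = 1), no difference between conditions could be tested, and the intervals given below cover counting error over peaks or genes only. The deposited intervals carry no height and no read number, so the depth of the libraries is unknown here and width is the one measure of a peak's size.

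GATA factors bind the core GATA, and in erythroid cells GATA1 and GATA2 occupy many of the same sites. Red cell precursors need large amounts of iron for heme. Iron arrives bound to transferrin, is taken up with the transferrin receptor, is reduced and released from the endosome, and is then passed to mitochondria, stored in ferritin or exported. A WGATAR match is GATA with an A or a T before it and an A or a G after it, on either strand, and was searched in the reference sequence of each peak. A peak of asynchronous cells that shares at least 1 base with a mitotic peak is called bookmarked.

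The sequences of 3 mitotic peaks are shown first, because each overlaps a bookmarked peak. Those of *FTH1* and *NCOA4* are among the 3 mitotic peaks counted by the rule. The one upstream of *SLC40A1* starts 117 bp beyond the 25 kb limit and is not counted. The counted mitotic peak of *SLC25A37* is not shown. The first is the central 300 bases of the mitotic peak in intron 1 of *FTH1*, at chr11:61966629-61966928. The second is the whole mitotic peak beyond the 3′ end of *NCOA4*, at chr10:46001337-46001610. The third is the mitotic peak upstream of *SLC40A1*, at chr2:189608875-189609057. All are hg38, plus strand, 5′ to 3′, with WGATAR matches of either strand in capitals. Each held 3 matches.
FTH1 intron 1: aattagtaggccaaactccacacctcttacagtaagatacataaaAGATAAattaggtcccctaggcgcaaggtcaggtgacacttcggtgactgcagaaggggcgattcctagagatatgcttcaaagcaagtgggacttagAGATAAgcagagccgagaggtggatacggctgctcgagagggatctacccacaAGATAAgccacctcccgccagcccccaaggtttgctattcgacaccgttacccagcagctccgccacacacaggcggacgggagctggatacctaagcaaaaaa
NCOA4 downstream: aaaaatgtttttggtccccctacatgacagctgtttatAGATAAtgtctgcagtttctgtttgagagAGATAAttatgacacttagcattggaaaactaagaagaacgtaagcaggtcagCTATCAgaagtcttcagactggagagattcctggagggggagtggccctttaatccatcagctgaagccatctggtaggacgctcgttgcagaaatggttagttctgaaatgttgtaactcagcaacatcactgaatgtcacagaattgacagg
SLC40A1 upstream: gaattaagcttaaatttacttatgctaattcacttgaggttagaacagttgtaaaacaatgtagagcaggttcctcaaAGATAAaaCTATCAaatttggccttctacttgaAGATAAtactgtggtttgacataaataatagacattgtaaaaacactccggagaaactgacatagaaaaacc

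The next 3 sequences come from peaks found in asynchronous cells only, at a storage and an uptake gene. They are the centre of the single *FTL* peak (chr19:48951670-48951969), the whole *STEAP3* promoter peak (chr2:119223576-119223783) and the centre of the *STEAP3* intron 1 peak (chr2:119229891-119230190). The *FTL* stretch holds 3 of the 4 matches of its peak. The *STEAP3* promoter peak is printed without capitals because it held no match.
FTL upstream: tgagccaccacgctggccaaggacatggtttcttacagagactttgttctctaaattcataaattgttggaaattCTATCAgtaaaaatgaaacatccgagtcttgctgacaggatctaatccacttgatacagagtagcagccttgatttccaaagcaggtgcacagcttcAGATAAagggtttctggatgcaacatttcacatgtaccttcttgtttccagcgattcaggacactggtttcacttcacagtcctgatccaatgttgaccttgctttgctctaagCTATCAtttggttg
STEAP3 promoter: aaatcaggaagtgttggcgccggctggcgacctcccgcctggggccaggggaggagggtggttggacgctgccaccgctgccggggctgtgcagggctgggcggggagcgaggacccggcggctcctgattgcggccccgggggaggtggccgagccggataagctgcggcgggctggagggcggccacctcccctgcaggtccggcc
STEAP3 intron 1: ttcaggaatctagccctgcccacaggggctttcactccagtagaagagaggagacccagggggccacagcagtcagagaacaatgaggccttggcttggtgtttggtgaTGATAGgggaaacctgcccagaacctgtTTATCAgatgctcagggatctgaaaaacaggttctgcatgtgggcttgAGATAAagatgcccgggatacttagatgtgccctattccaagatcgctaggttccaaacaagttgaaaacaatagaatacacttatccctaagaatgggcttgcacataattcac

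GATA2 peaks were found at 9 of the 10 genes in asynchronous cells, all except *HMOX1*. Over all protein-coding genes, 64.7% had at least 1 asynchronous peak by the same rule. The exact binomial interval for 9 of 10 runs from 55.5% to 99.7% and includes that share. *SLC40A1* had the most peaks, 7, followed by *NCOA4* with 6 and *FTH1* with 3. *TFRC*, *TFR2*, *STEAP3*, *SLC11A2* and *SLC25A37* had 2 each, and *FTL* had 1. Of all protein-coding genes, 5.30% had at least as many asynchronous peaks as *SLC40A1*, 7.61% at least as many as *NCOA4* and 27.5% at least as many as *FTH1*. For the genes with 2 peaks the share was 42.6%. The median was 2 peaks over the 10 genes and 1 peak over all protein-coding genes, in windows with a median length of 74.4 kb and 77.5 kb. Per megabase of window, the iron genes held 33.7 asynchronous peaks and all protein-coding genes 14.6. For the second value the windows of all protein-coding genes formed 4756 joined stretches, so it is per length and not per gene. *SLC40A1* and *NCOA4* together supplied 13 of the 27 peaks.

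**Figure D1:**
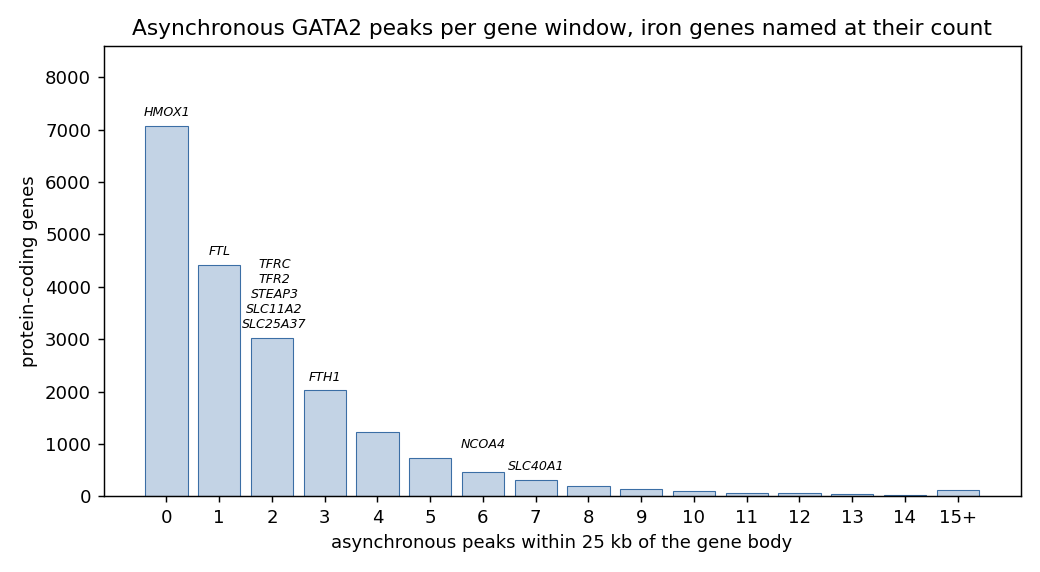
Number of protein-coding genes (y axis) with each number of asynchronous GATA2 peaks within 25 kb of the gene body (x axis), with the 10 iron genes named above the bar of their own count. *HMOX1* is at 0, most of the genes are at 1 to 3, and *NCOA4* and *SLC40A1* are at 6 and 7.

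In mitotic cells, peaks were found at 3 of the 10 genes, 1 each at *SLC25A37*, *FTH1* and *NCOA4*. The share over all protein-coding genes was 8.0%, and 12.3% over those with an asynchronous peak. The interval for 3 of 10 (30.0%, 6.67% to 65.2%) includes both. The second share leaves out genes without an asynchronous peak, such as *HMOX1*, which is counted in the 3 of 10. All 3 mitotic peaks shared bases with an asynchronous peak, and the paper describes peaks unique to mitosis as scarce over the whole genome. One more asynchronous peak, the farthest upstream of *SLC40A1*, overlapped a mitotic peak that itself began 117 bp beyond the 25 kb limit. So 4 of the 27 asynchronous peaks were bookmarked, or 14.8% (4.19% to 33.7%), against 5.04% of all asynchronous peaks. That interval includes the share over all peaks, and the difference was not tested. *TFRC*, *TFR2*, *STEAP3*, *SLC11A2* and *FTL* had asynchronous peaks only. Their nearest mitotic peaks lay 430 kb from the gene body for *TFRC*, 710 kb for *TFR2*, 893 kb for *STEAP3*, 340 kb for *SLC11A2* and 86.3 kb for *FTL*.

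**Figure D2:**
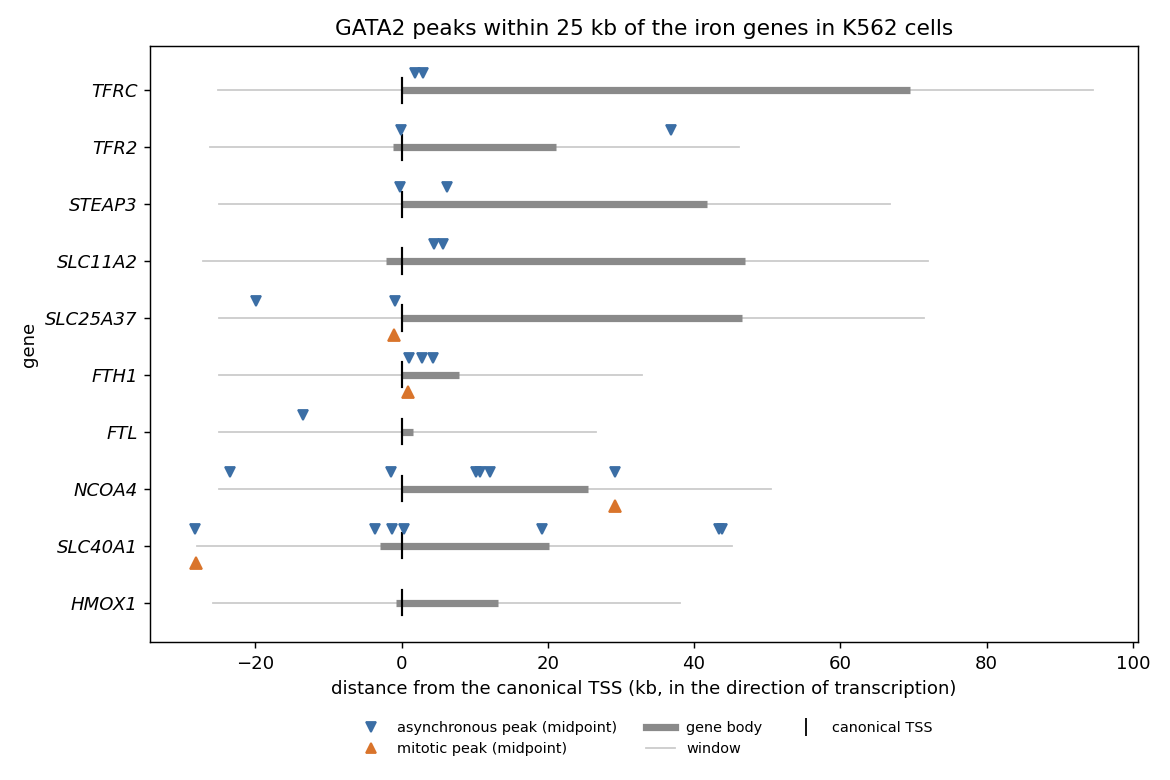
Midpoints of asynchronous (blue, above the line) and mitotic (orange, below the line) GATA2 peaks at the 10 iron genes, against the distance in kb from the start of the canonical transcript, positive in the direction of transcription. Thick grey bars are gene bodies and thin lines the windows. Mitotic peaks lie near the start of *SLC25A37* and *FTH1*, 29149 bp downstream of the canonical *NCOA4* start, and at the upstream edge of the *SLC40A1* window.

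Each of the 4 uptake genes had an asynchronous peak within 3 kb of one of its annotated starts, which held for 5 of their 8 peaks. Annotated starts numbered 21 for *TFRC*, 13 for *TFR2*, 3 for *STEAP3* and 25 for *SLC11A2*. The *SLC11A2* peak was 2947 bp from its nearest start but 4488 bp from the canonical one. The share of all protein-coding genes with such a peak was not counted. The other 3 of the 8 peaks were 22924 bp (*TFR2*), 6188 bp (*STEAP3*) and 4148 bp (*SLC11A2*) from the nearest start. No mitotic peak was found at these 4 genes, and of all protein-coding genes with an asynchronous peak 12.3% had one. *TFRC* (ENSG00000072274, minus strand, chromosome 3 from 196012511 to 196082153) encodes transferrin receptor 1, which carries iron-loaded transferrin into the cell. Both of its peaks were in intron 1 of the canonical transcript. The wider, from 196079770 to 196080804, was 1035 bp wide and centred 1803 bp downstream of the canonical start. Of all asynchronous peaks, 98.8% were narrower. Of the 386 asynchronous peaks at least as wide, 149 were bookmarked (38.6%), and this one was not. It held 5 WGATAR matches, but the one nearest to its midpoint was 320 bp away, and 4 of the 5 lay on the side nearer to the start of the gene. The narrower peak, from 196078789 to 196079500 and 712 bp wide, held 2 matches, 1 of them 1 bp from its midpoint. *TFRC* thus had 7 matches in its peaks, and a single one of them was AGATAA.

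*TFR2* (ENSG00000106327, minus strand, chromosome 7 from 100620416 to 100642779) encodes transferrin receptor 2, a second receptor that is also part of the erythropoietin receptor complex in erythroid cells. One peak, from 100641355 to 100641794 and 440 bp wide, was centred 23 bp upstream of the canonical start. Its only WGATAR match was part of a GATA and E-box composite, in which CTG is followed by 8 bases of any kind and then by the core, the arrangement bound by GATA factors together with TAL1. The composite read CTGCCAGGACTGATAA on the minus strand. Such a composite was found in 2 of the 27 peaks (7.41%, 0.910% to 24.3%) and in 8.55% of all asynchronous peaks. The other, in the farthest upstream peak of *NCOA4*, read CTGCTCACTGAGATAA. The second *TFR2* peak, from 100604565 to 100604795 and 231 bp wide, lay 137 bp from a start of *PCOLCE* and 15621 bp from the *TFR2* gene body, and held no match.

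*STEAP3* (ENSG00000115107, plus strand, chromosome 2 from 119223831 to 119265652) encodes the endosomal reductase that converts ferric to ferrous iron after uptake. Its promoter peak, from 119223576 to 119223783, was 208 bp wide, centred 154 bp upstream of the canonical start, and had a GC content of 75.5%. That peak held no WGATAR match. A search for GATAA alone, added after the values were seen, found 1 in it, and 1 or more in 23.8% of the 2232 asynchronous peaks without WGATAR. The other *STEAP3* peak, from 119229885 to 119230197 in intron 1, was 313 bp wide and held 3 matches, the nearest 10 bp from its midpoint.

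*SLC11A2* (ENSG00000110911, minus strand, chromosome 12 from 50979401 to 51028566) encodes DMT1, the transporter that moves ferrous iron out of the endosome. Both of its peaks were in intron 1 of the canonical transcript. The wider, from 51021588 to 51022204, was 617 bp wide, centred 4488 bp downstream of the canonical start, and held 3 matches and 2 copies of the E-box CAGCTG. The narrower, from 51020538 to 51020852, was 315 bp wide and held no match. It was the third of the 27 peaks without WGATAR, and its GC content of 38.7% was lower than that of the other two without a match.

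*SLC25A37* (ENSG00000147454, plus strand, chromosome 8 from 23528956 to 23575463) encodes mitoferrin 1, which imports iron into mitochondria for heme synthesis in erythroid cells. It had a mitotic peak close to its start. The asynchronous peak there, from 23527633 to 23528352, was 720 bp wide and centred 963 bp upstream of the canonical start. The mitotic peak, from 23527813 to 23528074, was 262 bp wide and covered 36.4% of it. Of the 4 WGATAR matches in the asynchronous peak, 1 lay within the mitotic interval. The second asynchronous peak of *SLC25A37*, from 23508616 to 23509470, was the wider at 855 bp, lay 19913 bp upstream, held 4 matches as well and was not bookmarked. Beyond the 25 kb limit, a further asynchronous peak from 23493995 to 23494626, whose nearest protein-coding start was also that of *SLC25A37*, overlapped a mitotic peak from 23494099 to 23494505 at 34.7 kb.

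Of the ferritin genes, *FTH1* had a mitotic peak and *FTL* did not. *FTH1* (ENSG00000167996, minus strand, chromosome 11 from 61959718 to 61967634) encodes the heavy chain of ferritin, the subunit that oxidises iron for storage. Its 3 asynchronous peaks all lay inside the annotated gene. The one nearest to the start, from 61966325 to 61967029, was in intron 1, was 705 bp wide and held 3 matches. The mitotic peak, from 61966618 to 61966939, was 322 bp wide, covered 45.7% of it and was centred 855 bp downstream of the canonical start. All 3 matches lay within the mitotic interval, and each of them was AGATAA on the plus strand, opposite to the direction of the gene. They were 98 and 53 bp apart. The same interval held the antioxidant response core TGACNNNGC as TGACCTTGC on the minus strand, a string found in 7 of the 27 peaks (25.9%, 11.1% to 46.3%) and 16.7% of all asynchronous peaks. The other *FTH1* peaks were 215 and 393 bp wide with 1 match each. The narrower was in exon 4 and the wider lay downstream of the canonical transcript. *FTH1* has 25 and *FTL* has 16 numbered pseudogenes in the annotation, and the authors kept uniquely mapped reads. The part of these copies in the result was not tested.

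*FTL* (ENSG00000087086, plus strand, chromosome 19 from 48965309 to 48966879) encodes the light chain of ferritin. No peak of either list lay in the gene or within 3 kb of its start. The single asynchronous peak of its window, from 48951619 to 48952021, was 403 bp wide, lay 13489 bp upstream and was nearer to a start of *BAX*, at 2995 bp. It held 4 matches, 2 of them AGATAA, and a TGACNNNGC core of the same letters as in *FTH1*.

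*NCOA4* (ENSG00000266412, minus strand, chromosome 10 from 46005088 to 46030623) encodes the receptor that delivers ferritin to autophagy and so frees stored iron. It had 6 asynchronous peaks, of which 1 was bookmarked, and the bookmarked one was downstream of the gene. That peak, from 46001169 to 46001690, was 522 bp wide, 3398 bp from the gene body, and held 3 matches and 2 E-boxes. The mitotic peak, from 46001337 to 46001610, was 274 bp wide, covered 52.5% of it and contained all 3 matches, 29 and 53 bp apart. This was the narrowest of the 4 bookmarked peaks. Of the 4275 asynchronous peaks within 50 bp of its width, 6.08% were bookmarked. The widest *NCOA4* peak, from 46031572 to 46032443, was 872 bp wide, centred 1385 bp upstream of the canonical start, held 4 matches and was not bookmarked. Of the 645 asynchronous peaks within 50 bp of its width, 26.2% were bookmarked. A row of 3 peaks in intron 1, 425 to 500 bp wide, lay within 1 kb of starts of shorter transcripts. The last peak, 515 bp wide, was 23488 bp upstream and nearer to *MSMB*.

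*SLC40A1* (ENSG00000138449, minus strand, chromosome 2 from 189560590 to 189583758) encodes ferroportin, the exporter of iron from the cell. It had 7 asynchronous peaks with 19 WGATAR matches in all, the most of the 10 genes on both counts, and all 7 had *SLC40A1* as the gene with the nearest start. The 3 peaks within 3 kb of an annotated start were 327, 654 and 895 bp wide and held 1, 2 and 2 matches. Another pair lay 43348 and 43734 bp downstream, 182 and 400 bp wide, and a peak of 209 bp lay in exon 8 with 3 matches. The widest, from 189608487 to 189609526, was 1040 bp and held 6 matches. It reached into the window with 272 of its bases, and its mitotic peak, from 189608875 to 189609057, lay just outside. That mitotic peak was 183 bp wide and covered 17.6% of the asynchronous peak. It held 3 of the 6 matches, 2 of them AGATAA, with 33 bp between the centres of the first and the last. At 16.4 matches per kb it was the densest of the 4 mitotic peaks, and the others ranged from 3.82 to 10.9. The peaks near the *SLC40A1* start had no mitotic counterpart.

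*HMOX1* (ENSG00000100292, plus strand, chromosome 22 from 35380361 to 35394214) encodes heme oxygenase 1, which breaks down heme and releases its iron. No peak of either list lay within 25 kb of it. Of all protein-coding genes, 35.3% had no asynchronous peak by the same rule. The nearest asynchronous peak, from 35298690 to 35299061, was 81300 bp from the gene and 399 bp from a start of *TOM1*. The nearest mitotic peak was 2499 kb away. Without read counts, a gene without GATA2 cannot be told from one below the limit of detection.

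A larger share of the 27 asynchronous peaks lay near gene starts than of the asynchronous peaks at all protein-coding genes. Of the 27, 15 lay within 3 kb of an annotated start of the gene itself, spread over 8 of the 10 genes, with *FTL* and *HMOX1* the exceptions. By the canonical start of the gene itself, 10 peaks at 7 genes did. The share of all protein-coding genes with a peak near their own start was not counted. Within 3 kb of the start of any protein-coding gene were 17 peaks, or 63.0% (42.4% to 80.6%). Among the 24678 asynchronous peaks within 25 kb of any protein-coding gene, the share was 26.4% (25.8% to 26.9%). The iron genes have a median of 7 annotated starts each and all protein-coding genes 5, so the canonical start alone was also counted. The shares were then 40.7% (22.4% to 61.2%) and 14.0% (13.6% to 14.5%). These intervals count each peak as independent, but *NCOA4* and *SLC40A1* supplied 4 and 3 of the 15 peaks near their own start. The comparison peaks were not matched for window length, and the difference was not tested. By the canonical transcript, 9 peaks were in introns, each of them in intron 1, 3 were in exons, 8 were upstream of the gene and 4 downstream of it. The other 3, at *TFR2*, *SLC40A1* and *FTH1*, were in the gene but outside the canonical transcript. Another gene held the nearest start for 3 peaks, those near *PCOLCE*, *BAX* and *MSMB*. None of these 3 was bookmarked, and of all asynchronous peaks 5.04% were. Of the 15 peaks within 3 kb of a start of their own gene, 2 were bookmarked (13.3%, 1.66% to 40.5%), those of *SLC25A37* and *FTH1*. Of the 24678 asynchronous peaks within 25 kb of any protein-coding gene, 4.77% were bookmarked, which lies within that interval. The share over all peaks near a start was not counted.

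By their median, the peaks at the iron genes were wider than the list as a whole, and the bookmarked ones were among the wider. The difference in width was not tested. The median width was 465 bp (quartiles 321 and 708 bp), against 378 bp (267 and 518 bp) for all asynchronous peaks. The range was 182 to 1040 bp. In the widest decile of the list, from 681 bp upward, were 8 of the 27 (29.6%). Of these 8, 3 were bookmarked, those of *SLC40A1*, *SLC25A37* and *FTH1*, beside 24.6% of all peaks in that decile. The bookmarked peak at *NCOA4* was 522 bp wide. None of the 8 iron gene peaks below the median width was bookmarked, and of all 15844 peaks below it, 63 (0.398%) were. The remaining 5 peaks in the widest decile had no mitotic counterpart. They were the pair at *TFRC* and the single wide peaks at *SLC40A1*, *NCOA4* and *SLC25A37* named above.

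**Figure D3:**
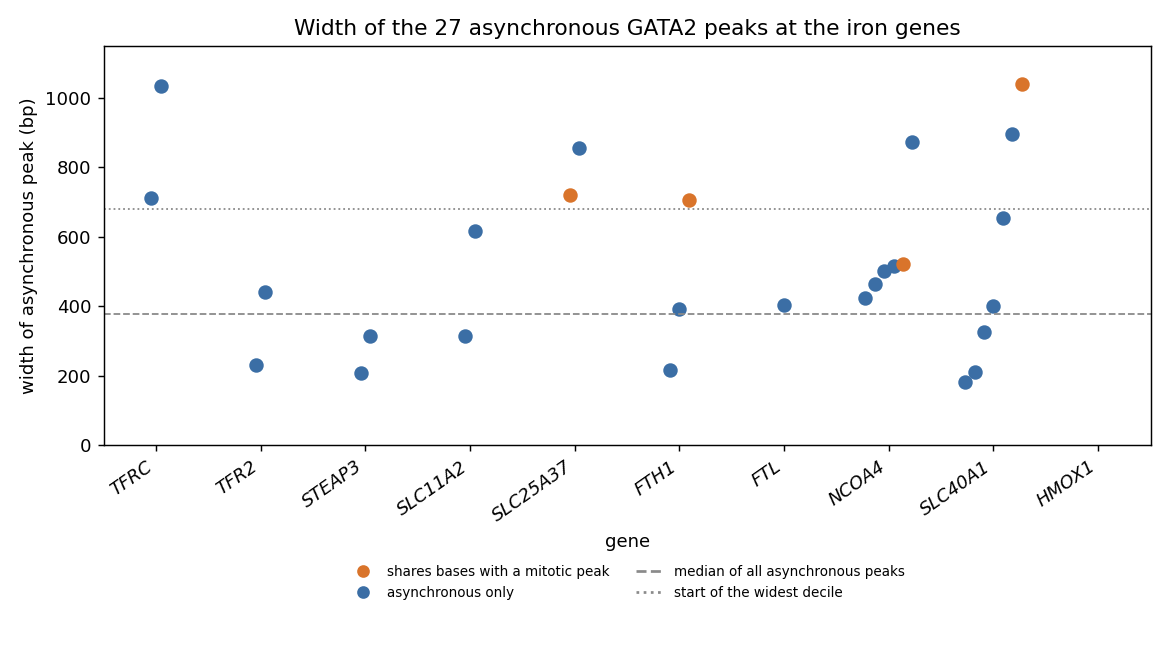
Width in bp (y axis) of each of the 27 asynchronous GATA2 peaks, by gene (x axis), in orange if it shares bases with a mitotic peak and in blue if not. The dashed line is the median of all asynchronous peaks, 378 bp, and the dotted line the start of the widest decile, 681 bp. The 4 orange points lie between 522 and 1040 bp, with blue points of *TFRC*, *SLC40A1*, *NCOA4* and *SLC25A37* at similar widths.

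WGATAR matches were present in most of the iron gene peaks, as in the list. A WGATAR match was found in 24 of the 27 peaks (88.9%, 70.8% to 97.6%), against 93.0% of all asynchronous peaks. The mean was 2.41 ± 1.53 matches per peak (SD over peaks, n = 27), against 2.51 ± 2.99 over the list. Per kb of peak sequence there were 4.59 matches at the iron genes and 6.0 over the list. At least 3 matches were found in 13 peaks (48.1%) and in 37.0% of all asynchronous peaks. The longer string AGATAA was present in 16 (59.3%, 38.8% to 77.6%), against 70.0% of the list, which lies within the interval. The match nearest to the midpoint of the peak was a median of 26.8 bp away, and 27.5 bp over the list. The 1035 bp peak of *TFRC* and the 895 bp peak of *SLC40A1* had the most distant ones, with their nearest matches 320 and 276 bp from the midpoint.

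**Figure D4:**
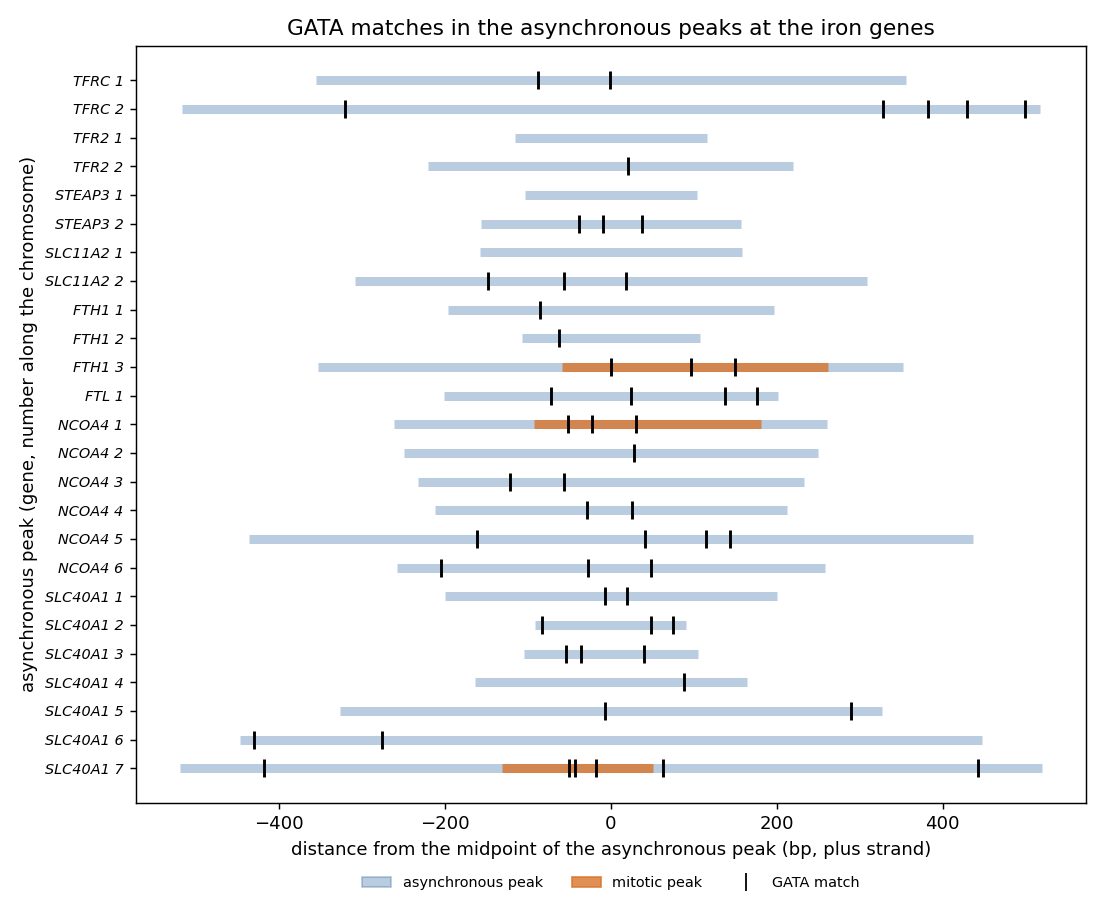
Position of WGATAR matches (black ticks) in the asynchronous GATA2 peaks (blue bars) of the iron genes, in bp from the midpoint of each peak along the plus strand, with mitotic peaks in orange. The peaks of *SLC25A37* are not drawn. All 3 matches lie within the orange interval at *FTH1* and *NCOA4*, and 3 of 6 at *SLC40A1*, while the wider *TFRC* peak has its matches toward the edges.

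Other strings were sought on both strands in the same peaks. The E-box CAGCTG was present in 6 of 27 (22.2%, 8.62% to 42.3%), close to the 24.1% of the list. The AP-1 strings TGAGTCA and TGACTCA were present in none of the 27 (0% to 12.8%), against 13.0% of the list. The CACCC string CCACACCC, bound by Krüppel-like factors, was present in none of the 27 either (0% to 12.8%), against 4.05% of the list. These intervals count each peak as independent, though several peaks come from the same gene, and no difference was tested. RefSeq promoters of GRCh38.p14, 300 bases each around a start, were found for 6 of the genes, with 10 promoters in all. A WGATAR match was present in 1 of the 10, a promoter of *SLC11A2*, and in 25% of the 35116 promoters of the table. Asynchronous peaks overlapped 2 of the 10, those of *STEAP3* and the second promoter of *NCOA4*, and mitotic peaks overlapped none. No promoter was listed for *TFR2*, *SLC25A37*, *FTH1* and *HMOX1*. These counts therefore leave out the peak at the *TFR2* start and the mitotic peaks near the starts of *SLC25A37* and *FTH1*.

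For the wider pathway, 36 further genes of iron and heme handling were listed from textbook knowledge, with earlier results of these data known. Of these, 27 (75.0%) had an asynchronous peak within 25 kb and 8 (22.2%) a mitotic peak, beside 64.7% and 8.0% of all protein-coding genes. These shares are given without an interval, and the differences were not tested. Genes with a mitotic peak fell to 5 with 10 kb on each side and to 4 with the gene body alone. Some windows were long, 487 kb at *BACH1* and 206 kb at *BMP6*, against a median of 77.5 kb over all protein-coding genes. Mitotic peaks were found at *FLVCR1*, described as a heme exporter, *SLC48A1*, which moves heme out of the lysosome, *ABCB10*, which stabilises mitoferrin 1, *BLVRA*, which converts biliverdin to bilirubin, *HJV*, a co-receptor for the control of hepcidin, *CP*, the ferroxidase ceruloplasmin, *BMP6*, an inducer of hepcidin, and *BACH1*, a repressor that senses heme. Those of *FLVCR1*, *SLC48A1* and *ABCB10* lay in intron 1 of the canonical transcript, centred 1900, 463 and 3350 bp from the nearest start of the gene and 302, 243 and 312 bp wide. That of *HJV* lay 836 bp from a start. Those of *BLVRA* and *BACH1* were outside the genes, 8074 and 46096 bp from the nearest start. *CP* had 2 mitotic peaks, of which 1 was nearer to *HPS3*. That of *BMP6* was 480 bp from a start of *TXNDC5* and 173663 bp from the nearest start of *BMP6*.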

How the data were processed

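GATA2 ChIP-seq libraries of asynchronous and mitotic K562 cells were used, 1 per condition, and the input libraries were not used here. The authors aligned reads to hg38 with BWA 0.7.12, kept uniquely mapped reads (mapping quality of at least 25), extended them to 200 bp, called peaks with MACS2 2.1.0 and Genrich 0.6.1 and removed peaks on the ENCODE blacklist. How both callers and the inputs were combined is not given in the sources used here. The deposited values are peak positions in bp (chromosome, start, end), with no score, height or count, and are printed with the first base as 1. Genes were those of GENCODE release 44 on GRCh38, whose chromosome lengths contained every peak, and all 10 symbols matched 1 gene. The canonical transcript is that marked by Ensembl. Distances run from the midpoint of the peak. Strings were matched in the reference on both strands without overlap, so K562 variants are not considered. Where a share carries an interval, it is the exact Clopper-Pearson interval at 95%. No test was made between conditions. The members and lists were chosen with earlier results of these data known. Named genes were the 10 members, the neighbours with a nearer start (also at the peak nearest to *HMOX1*), and the other iron genes with a mitotic peak. Every mitotic peak was described, with the widest asynchronous peak and the one nearest to a start of each gene. In a test on simulated data, 100 of 100 planted bookmarked peaks were recovered among 2000. Alternatives to the window, the overlap and the motif search are given in the closing section. The work used Python 3.11.15 with scipy 1.17.1, numpy 2.4.6, matplotlib 3.10.9 and pysam 0.24.0.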

Additional observations from a re-analysis of the deposited data

How the results depend on the processing

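Of 44 values under other settings, 27 stayed within 1.5 times of the main count or within the interval of the main share. With the gene body alone, the 10 genes held 15 asynchronous peaks, 1 mitotic peak and 1 bookmarked peak, at 1 gene (*FTH1*), and 4 of the other iron genes had a mitotic peak. With 10 kb on each side, 5 of the other iron genes did. With 50 kb, there were 41 asynchronous and 5 mitotic peaks, and by the nearest protein-coding start 6 mitotic peaks. With peaks at or above the median width of their own list, 1 mitotic peak at 1 gene and 1 bookmarked peak remained, and the median width was 617 bp. Reciprocal overlap of at least 50% left 1 bookmarked peak. AGATAA in place of WGATAR was found in 59.3% of the peaks at 1.76 per kb, and the central 200 bp held 7.22 WGATAR matches per kb. Over all asynchronous peaks these densities were 2.64 and 8.08, and the differences were not tested. Taking peaks by their midpoint, an alternative added after seeing the data, left 26 asynchronous and 3 bookmarked peaks, without the upstream peak of *SLC40A1*. No paired analysis was possible because each condition has 1 library. With 1 library and no read counts, presence in a list is all that can be compared.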
